A study of Homo sapiens with 6 samples.

Results

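The distal end of the long arm of chromosome 10 was examined in a lung adenocarcinoma line of human origin, NCI-H1975, and in its osimertinib-resistant derivative H1975/OSI. Osimertinib is an inhibitor of the EGFR kinase. The block comprises every gene row on chromosome 10 with a gene start at or beyond 86.6 Mb on GRCh38, which gave 499 of the 30330 genes measured. Its last gene ends at 133642894, 47.04 Mb past the threshold, and the other 692 genes of chromosome 10 form its neighbourhood. The position of the threshold was chosen from the difference between the resistant and the control libraries in these same files. The differences given for the block are therefore descriptions, and none of them is a test of the block.

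The resistant line had been selected during 7 months with osimertinib doses of 0.03, 0.1, 0.3, 1 and 3 µM, and 3 resistant libraries (titled Drug) were compared with 3 libraries of the parental line (titled Control). The labels do not say whether drug was present at harvest, whether the resistant line was a clone or a pool, or whether the libraries of a group came from separate cultures. The spread behind each p-value is therefore that among libraries of a group, and it may be technical. In bulk RNA, fewer cells of a kind and less RNA per cell cannot be told apart.

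Each library held 15174126 to 16588479 recovered reads, and all values below are normalised read counts unless another scale is named. Resistant library 1 was the most distant of the resistant group. Over genes with a mean of at least 50, its median absolute log2 difference was 0.14 from resistant 2 and 0.16 from resistant 3, against 0.085 between resistant 2 and 3 and 0.079 to 0.10 between control libraries. No pair of libraries agreed within sampling noise, with a chi-square of 2.32 to 12.1 per gene. Of 9 lung adenocarcinoma and epithelial markers, 8 had reads in every library. The exception was SFTPB, a surfactant protein of differentiated alveolar cells, which was at 0 in resistant 1 and 2 and at 8.67 or less elsewhere. The summed epithelial markers were at 33275 to 39193 in resistant and 51235 to 54113 in control libraries, and the sum was made up mostly of KRT8, KRT18, KRT19 and EGFR. The markers did not move together: EPCAM was at 15.7 to 19.7 in resistant against 353 to 391 in control libraries, while NKX2-1 was at 440 to 481 against 254 to 303 and NAPSA at 24.9 to 37.7 against 14.5 to 23.9. Markers of other cell types moved in part with the groups: the endothelial list summed to 557 to 751 in resistant and 289 to 329 in control libraries, and the 3 fibroblast genes with rows to 4807 to 5378 and 4426 to 5323, nearly all from COL1A1. Within the endothelial list CDH5 was higher, at 464 to 670 against 122.6 to 129.1, and PECAM1 lower, at 78.9 to 88.7 against 157 to 199. Of the leukocyte markers, CD68 was at 5.10 or less in every library, and PTPRC and CD3E were not analysed here. DCN, on the fibroblast list, was also not analysed here. The part of these differences in the results below was not tested.

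Genes that lie next to each other on a chromosome share its DNA copy number and, within domains, its chromatin state, although most of them have unrelated functions. RNA levels ordered by gene position can therefore show whether a difference is spread over a stretch of chromosome or limited to single genes or pathways. The distal long arm of chromosome 10 carries genes of many kinds, among them cell division genes (MKI67, KIF11), the IFIT cluster of interferon-induced genes and enzymes of lipid metabolism such as SCD. The files hold RNA values only, and DNA was not analysed here.

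The promoters of the block and of its neighbourhood had nearly the same base composition, a property that the choice of members did not use. RefSeq promoter stretches (GRCh38.p14) were taken as the 250 bases before the RefSeq start. They were matched for 246 of the 284 protein-coding members with a tested difference and for 266 of 301 in the rest of the chromosome. The RefSeq start can lie inside the gene bounds of the deposited files. For PLCE1, on the plus strand, the stretch begins at 94088776 and the gene at 94030812. The median GC content was 64.0% in both sets, and the median number of CG dinucleotides was 19.5 in the block and 19.0 in the rest. Over all 27305 promoters of the table the median number was 11.0. Those promoters were not limited to protein-coding genes with a tested difference, so they are no matched background. For 4 genes, the part of the stretch that also lies before the gene bounds in the deposited files is printed. It runs 5′ to 3′ on the strand of the gene, with CG dinucleotides in capitals. These genes lie at the edge of the block or had large differences of opposite direction within it. CCSER2 (chr10:84328339-84328557, plus strand) and WAPL (chr10:86521816-86522042, minus strand) lie on either side of a step described below. LOXL4 (chr10:98268251-98268444, minus strand) and ANKRD1 (chr10:90921277-90921337, minus strand) were among the members with the largest fall and the largest rise.
CCSER2: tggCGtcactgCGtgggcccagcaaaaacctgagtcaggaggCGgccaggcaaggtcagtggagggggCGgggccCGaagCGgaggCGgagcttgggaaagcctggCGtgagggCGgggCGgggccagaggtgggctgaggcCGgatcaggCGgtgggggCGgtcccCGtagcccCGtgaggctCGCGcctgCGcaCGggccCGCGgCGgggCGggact
WAPL: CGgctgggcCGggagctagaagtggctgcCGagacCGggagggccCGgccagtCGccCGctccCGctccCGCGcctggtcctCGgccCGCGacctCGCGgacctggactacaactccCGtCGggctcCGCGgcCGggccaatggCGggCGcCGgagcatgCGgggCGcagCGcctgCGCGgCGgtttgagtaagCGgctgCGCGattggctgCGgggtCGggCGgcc
LOXL4: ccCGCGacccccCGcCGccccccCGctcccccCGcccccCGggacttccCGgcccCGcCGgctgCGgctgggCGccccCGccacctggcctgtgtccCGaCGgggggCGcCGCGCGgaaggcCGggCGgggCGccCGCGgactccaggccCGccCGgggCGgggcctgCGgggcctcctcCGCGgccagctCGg
ANKRD1: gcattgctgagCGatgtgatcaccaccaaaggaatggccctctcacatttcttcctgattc
The printed parts of CCSER2, WAPL and LOXL4 held 23, 35 and 31 CG dinucleotides in 219, 227 and 194 bases, and that of ANKRD1 held 1 in 61. Over whole stretches of 250 bases, the count among the 6 members with the largest rise ranged from 0 to 27. Among the 4 of 6 with the largest fall that had a matched stretch it ranged from 1 to 37, so the ranges overlapped. The count of 1 was that of COL17A1, which had the largest fall.

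Most genes of the block had lower RNA levels in the resistant line, by a moderate and similar amount in all 3 resistant libraries. Of the 499 members, 411 reached 1 normalised read count in at least 3 libraries and were tested. Their median log2 fold change was -0.50, which is 0.709 times the control level, against 0.13 over the 550 tested genes in the rest of chromosome 10, 0.018 on the other chromosomes and 0.013 over all 24560 tested genes. Of the 411, 306 (74.5%) had a log2 fold change below 0, against 41.6% in the rest of the chromosome and 49.2% of all tested genes. The median of the block was below that of each of the 22 autosomes, the lowest of which was chromosome 5 at -0.35. On chromosome 5, 72.1% of tested genes had a log2 fold change below 0, close to the percentage in the block. Chromosome 10 as a whole was at -0.076. The autosomes were taken whole, while the block was chosen on this contrast, and parts of other chromosomes were not compared. When the 8 tested members without a read in any library of 1 group were set to a floor of 3 reads per library, the block median was -0.46.

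The 3 resistant libraries gave nearly the same value. Against the mean of the controls, the median log2 difference over the block was -0.50 in resistant 1, -0.48 in resistant 2 and -0.51 in resistant 3. Each control library, set against the mean of the other control libraries, was at -0.011, 0.013 and 0.0068. Subtracting the median of the rest of chromosome 10 within each library left a mean of -0.64 ± 0.028 (SD, n = 3) for the resistant group. The subtraction removes a scaling factor of a library only approximately for genes with few reads, because 1 was added to each value. For the control group the mean was -0.011 ± 0.030 (SD, n = 3). Each control library was set against the other controls, so a control mean near 0 was fixed in advance. All resistant libraries were set against the same control mean, so their SD leaves out the spread among controls. The SDs of the groups therefore do not measure the same spread. Without resistant 1, the most distant library, the block median was -0.50.

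**Figure D1:**
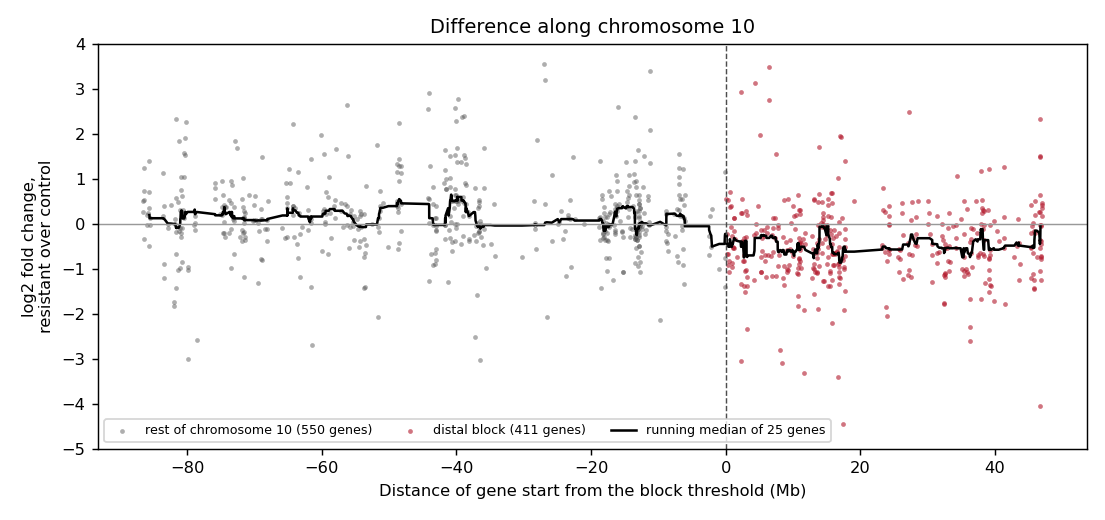
Log2 fold change, resistant over control, of each tested gene of chromosome 10 (points; 411 in the block, 550 outside) against the distance of its start from the block threshold in Mb, with the running median of 25 genes (line). The line lies below 0 in all 399 windows centred in the block and between -0.50 and 0.65 elsewhere.

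The same difference appeared in the share of all reads that came from the block. The 499 members took 1.11%, 1.11% and 1.13% of the gene total in the resistant libraries, and 1.54%, 1.53% and 1.56% in the control libraries. The groups did not overlap, and the ratio of the means was 0.724. The rest of chromosome 10 went the other way, with a share of 2.34 ± 0.016% in the resistant and 2.09 ± 0.032% in the control group (SD, n = 3 per group), a ratio of 1.12. Reads of the mitochondrial genome made up 5.33 to 5.66% of resistant and 6.46 to 7.34% of control libraries, and the ratio for the block without them was 0.713. It was 0.754 without the 5 members with the highest counts, PGAM1, MYOF, SCD, MKI67 and EIF3A.

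Counted gene by gene, the block held many lower and few higher genes. In limma-trend with Benjamini-Hochberg adjustment over all 24560 genes, 194 of 411 members were called lower (47.2%), where 21.1% of all tested genes were, and 29 were called higher (7.06%), where 20.4% were. The other 188 did not pass; over all tested genes 41.5% passed in either direction. The 3 resistant libraries lay below all control libraries for 218 members (53.0%, against 25.4% of all tested genes) and above them for 37 (9.0%, against 24.7%). Since the threshold was placed on this same contrast, these counts describe the block and support nothing. In the rest of chromosome 10, 78 of 550 genes were called lower (14.2%) and 129 higher (23.5%). On chromosome 5 taken whole, 39.4% of tested genes were called lower and 8.08% higher, so few higher calls were not particular to the block. Of the 194 lower members, 120 were lower by less than 2-fold, 74 by 2-fold or more and 12 of these by 4-fold or more. Of the 29 higher members, 13 were higher by 2-fold or more.

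The members differed widely among themselves around the common shift. The middle of the distribution, from the first to the third quartile, ran from -0.94 to 0.0032, a width of 0.94 on the log2 scale, against 0.77 in the rest of the chromosome and 0.90 over all tested genes. Genes with a mean of at least 50 and a protein product had a median of -0.58 over 215 members, with quartiles of -0.91 and -0.20. In the rest of the chromosome 231 such genes had a median of 0.065, with quartiles of -0.20 and 0.37. Of the 215, 157 were called lower (73.0%) and 21 higher (9.77%), where 34.5% and 28.1% of all 11553 such genes were. The cumulative curve of the block was displaced to lower values at both ends: the 10th percentile was -1.26 in the block and -0.74 in the rest of the chromosome, and the 90th percentile 0.49 and 1.29.

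**Figure D2:**
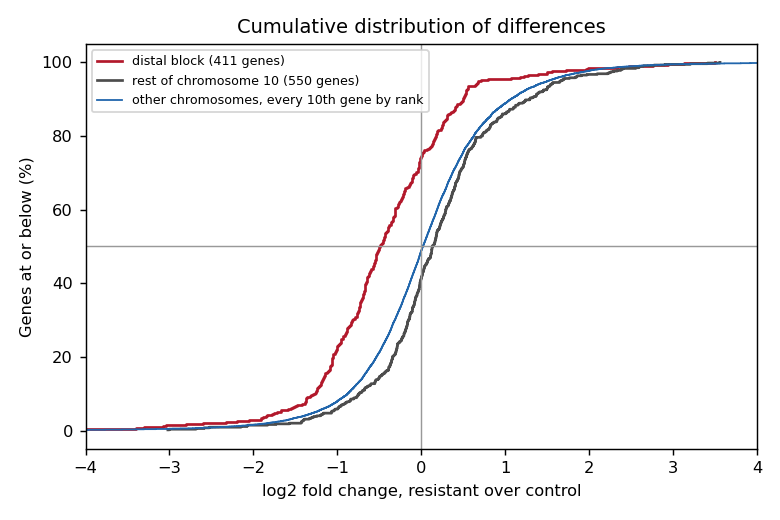
Cumulative percent of tested genes (vertical axis) at or below a log2 fold change, resistant over control (horizontal axis), for the block (411 genes), the rest of chromosome 10 (550 genes) and 1 gene in 10 by rank of the other chromosomes. The block curve crosses 50% at -0.50 and the curve for the rest of chromosome 10 at 0.13.

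The shift was larger in classes of genes with more reads. For members with a mean below 10, the median log2 fold change was -0.24 (117 genes), from 10 to 100 it was -0.39 (81 genes), from 100 to 1000 it was -0.53 (154 genes), and at 1000 or more it was -0.67 (59 genes). The added pseudocount of 1 pulls the values of genes with few reads towards 0, but its part in the difference between classes was not tested. In the rest of chromosome 10 the same 4 classes had medians of 0.30, 0.18, 0.11 and -0.00074, each above that of the block. Over all tested genes the medians were 0.10, 0.14, -0.023 and -0.081, so lower medians in the 2 classes with more reads were not particular to the block.

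Both strands and most transcript classes took part. The median was -0.48 over 217 members on the plus strand and -0.51 over 194 on the minus strand. It was -0.55 for 284 protein-coding genes, -0.34 for 45 antisense transcripts, -0.51 for 22 long intergenic noncoding RNAs, -0.38 for 25 other noncoding RNAs and -0.21 for 35 pseudogenes, whose reads can come from their parent genes elsewhere. Each of these classes had a median above 0 in the rest of chromosome 10, at 0.075, 0.22, 0.18, 0.37 and 0.32. The 88 members that were not tested, 21 of them protein-coding, reached at most 6.91 in any library and together summed to 38.6 ± 11.7 in the resistant and 61.1 ± 10.4 in the control group (SD, n = 3 per group).

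Along the block all bin medians were below 0, but the size of the shift varied. In bins of 5 Mb counted from 86.6 Mb, the median log2 fold changes were -0.39, -0.58, -0.44 and -0.64 in the 4 bins up to 106.6 Mb. They were -0.51, -0.48, -0.49 and -0.66 in the 4 bins from there to 126.6 Mb, and -0.41 and -0.20 in the last 2. The bins from 106.6 Mb and from 126.6 Mb held only 16 and 13 tested genes. All 10 bins of the block were below 0, against 5 of 18 bins in the rest of the chromosome. Of those 5, the bins from 51.6 Mb (-0.58) and from 81.6 Mb (-0.50) held only 4 and 9 tested genes, and the latter adjoins the block.

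The last bin, from 131.6 Mb, had the bin median nearest to 0. It held 40 tested genes, of which 16 were called lower and 5 higher. STK32C, a kinase gene chosen after its value was seen, as were the other examples from this bin, fell from 845 ± 35.8 to 395 ± 62.1 (SD, n = 3 per group). ECHS1, a mitochondrial enzyme of fatty acid oxidation, fell by 0.77 on the log2 scale. KNDC1 and CYP2E1 lay among them and rose, with log2 fold changes of 0.26 and 0.35. The lowest running median within the block, -0.86, was centred on NEURL1 at 103493979, and the highest, -0.036, on the pseudogene BANF1P2 at 133344643. A second stretch with little shift, chosen after its values were seen, ran from HIF1AN to KCNIP2-AS1 (100.529 to 101.819 Mb), where 22 successive running medians lay between -0.25 and -0.045. Neighbouring genes were only loosely alike beyond the shared shift: across the 410 neighbour pairs of the block, Spearman's rho of their log2 fold changes was 0.18, and it was 0.099 across the 549 pairs in the rest of the chromosome. These pairs share libraries and overlapping reads, and genes are not independent replicates.

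**Figure D3:**
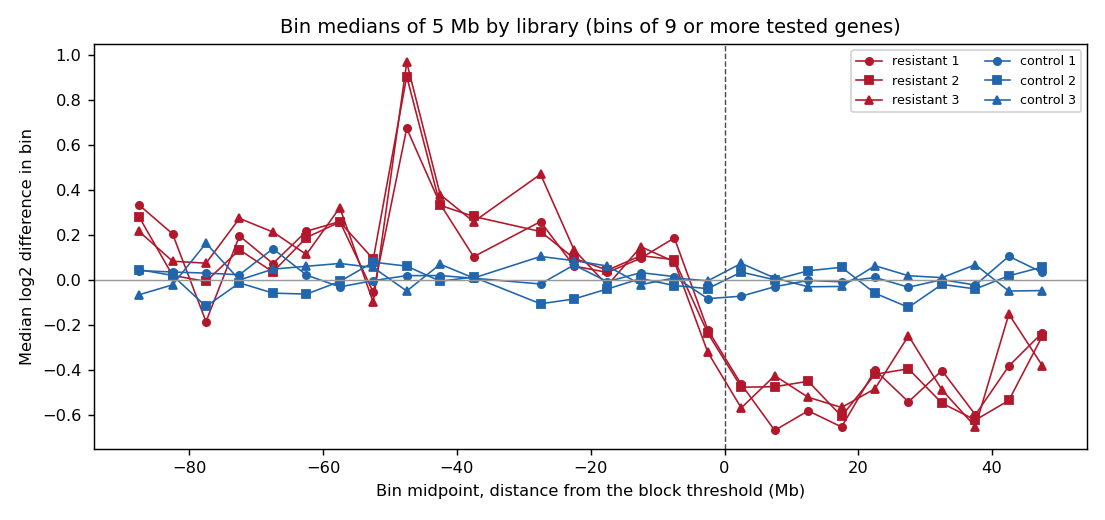
Median log2 difference over the tested genes in each 5 Mb bin of chromosome 10 (vertical axis) against the distance of the bin midpoint from the block threshold in Mb, for each resistant library against the control mean (red) and each control library against the mean of the other controls (blue). Bins with at least 9 tested genes are drawn. In every bin from the threshold on, all 3 resistant libraries lie below 0 and below the control libraries.

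The fitted place of the edge varied, and the stretch just before the threshold, from 81.6 Mb, held only 9 tested genes. The last 4 protein-coding genes before the threshold with a mean of at least 10 were TSPAN14, GHITM, CCSER2 and WAPL. TSPAN14, a tetraspanin gene starting at 80454166, was at 1129, 1197 and 1150 in resistant libraries 1 to 3 and at 1082, 1078 and 1035 in control libraries 1 to 3. The groups did not overlap, but the log2 fold change of 0.12 ± 0.069 (SE) did not pass the test, and with median centring it was -0.013. GHITM, a mitochondrial membrane protein gene starting at 84139440, was at 3920, 3880 and 3659 against 4400, 4491 and 4841, a log2 fold change of -0.26 ± 0.063 (SE) that passed the test. CCSER2, starting at 84328558, was at 942, 1036 and 1108 against 871, 960 and 905, and the groups overlapped.

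WAPL, the last of the 4, fell by more than the block median. It encodes a factor that releases cohesin from chromatin and starts at 86435256, just before the threshold. It was at 971, 1020 and 971 in the resistant libraries and at 1704, 1663 and 1678 in the control libraries, a log2 fold change of -0.77 ± 0.067 (SE), with groups far apart. Its antisense neighbour WAPL-DT, named after its value was seen, starts at 86521945. It was also called lower, with a log2 fold change of -1.41 ± 0.35 (SE). The rule therefore leaves out genes that were called lower beside the threshold. Of the 9 tested genes in the bin from 81.6 Mb to the threshold, 3 were called lower and 0 higher.

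The 4 protein-coding genes just inside the threshold did not move together. LDB3, a muscle Z-disc protein gene, was at 29.6, 28.6 and 26.6 in resistant libraries 1 to 3 and at 19.5, 19.7 and 17.3 in control libraries 1 to 3, higher in each resistant library, with a log2 fold change of 0.56 ± 0.28 (SE) that did not pass the test. BMPR1A, a receptor for bone morphogenetic proteins, was at 645, 709 and 712 against 790, 819 and 800, a log2 fold change of -0.22 ± 0.077 (SE) that passed the test. MMRN2, which overlaps SNCG, was at 18.4, 30.5 and 10.9 against 12.3, 8.31 and 18.3, and SNCG was at 19.4, 24.0 and 19.7 against 29.8, 30.1 and 43.4. LDB3, MMRN2 and SNCG had fewer than 50 normalised read counts in every library. The next well-measured gene, GLUD1, chosen after its value was seen, encodes glutamate dehydrogenase and starts at 87050486. It was at 1626, 1546 and 1606 against 3246, 3380 and 3434, a log2 fold change of -1.07 ± 0.063 (SE).

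A single step fitted along chromosome 10 by least squares fell at 80.247 Mb, at the pseudogene EIF5AP4, with a mean log2 fold change of 0.21 before and -0.43 after it, a step of -0.64. Fitted to each resistant library alone it fell at 86.750, 80.247 and 80.151 Mb, with steps of -0.66, -0.62 and -0.65. In control libraries 1 to 3, each against the mean of the others, the best step was 0.21, 0.098 and -0.078 and lay at 130.020, 84.329 and 92.669 Mb. Restricted to the 446 protein-coding genes with a mean of at least 50, the step fell between CCSER2 and WAPL, at 86.435 Mb, and measured -0.69. For single resistant libraries that restriction gave 77.791, 91.924 and 86.435 Mb. Running medians of 25 genes were last at or above 0 at the antisense gene TSPAN14-AS1, which starts at 80529597, and stayed below 0 from there to the end of the chromosome.

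Genes of all 9 roles listed for the block had a median below 0. The lists together hold 200 genes known to lie on distal 10q, of which 188 had rows and 179 were tested. The 105 tested protein-coding members on no list had a median log2 fold change of -0.51, with 57 called lower and 6 higher. The share called among all tested genes, 21.1% lower and 20.4% higher, applies to each count that follows. The tested genes on the lists are protein-coding, and among all 15296 tested protein-coding genes the share was 29.1% lower and 25.7% higher. None of the lists was tested as a set.

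Genes of cell division and DNA replication were nearly all called lower. Of 22 tested members, 20 were called lower and 0 higher, with a median of -0.87. MKI67, which coats mitotic chromosomes and is used as a proliferation marker, was at 2027, 2459 and 2419 in resistant libraries 1 to 3 and at 8531, 7955 and 7238 in control libraries 1 to 3, a log2 fold change of -1.78 ± 0.076 (SE). BUB3, a spindle checkpoint protein gene, was at 1820, 1651 and 1742 against 3347, 3328 and 3418. The groups were far apart for both. KIF11, the mitotic kinesin gene, chosen after its values were seen, fell by 1.17 on the log2 scale. TNKS2 and FANK1, with log2 fold changes of -0.14 and -0.032, did not pass. Without the genes of this list, the median of the block was -0.46.

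Nuclear genes for mitochondrial proteins were lower in a similar proportion. Of 23 tested members, 20 were called lower and 0 higher, with a median of -0.65. BNIP3, a mitophagy receptor gene that overlaps 2 antisense transcripts, was at 3552, 2534 and 2609 in resistant libraries 1 to 3 and at 4063, 4038 and 4206 in control libraries 1 to 3. PRDX3, a mitochondrial peroxiredoxin gene, was at 2641, 2599 and 2559 against 3558, 3446 and 3671. In both, every resistant library lay below every control library, and the log2 fold changes were -0.52 ± 0.11 and -0.45 ± 0.061 (SE). TWNK, the mitochondrial DNA helicase gene, and GOT1, an aspartate aminotransferase gene that acts in the cytosol beside the mitochondrial shuttle, were chosen after their values were seen and fell by 1.26 and 1.20. SFXN3, a mitochondrial serine carrier gene, did not pass (log2 fold change -0.045).

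Metabolic genes were mostly lower, with several strong exceptions. Of 27 tested members, 17 were called lower and 7 higher, with a median of -0.57. PGAM1, a glycolytic mutase gene, was at 6106, 5929 and 5634 in resistant libraries 1 to 3 and at 9808, 10142 and 9965 in control libraries 1 to 3, a log2 fold change of -0.76 ± 0.059 (SE). SCD, the stearoyl-CoA desaturase gene, was at 6431, 4685 and 4999 against 8044, 7920.4 and 7377, a log2 fold change of -0.55 ± 0.096 (SE). PGAM1 has near-identical processed copies elsewhere in the genome, so its reads may be split. Of the 7 higher members, PPP1R3C, which targets a phosphatase to glycogen, was at 1041, 952 and 928 against 242, 234 and 259, and PLCE1, a phospholipase C gene, at 747, 837 and 900 against 289, 280 and 274. CYP26A1, a retinoic acid hydroxylase gene chosen after its value was seen, had no reads in control libraries and a mean of 11.3 in resistant ones, at least 3.74-fold higher with a floor of 3 reads per library. The others were OGA, PLEKHA1, CYP2E1 and ELOVL3, named after their values were seen, with log2 fold changes of 0.18, 0.34, 0.35 and 0.68.

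Among signalling genes, 17 of 29 were called lower and 3 higher, with a median of -0.49. NFKB2, the p100 subunit gene of NF-kB, was among the higher members, at 3958, 3368 and 3517 in resistant libraries 1 to 3 and at 2578, 2847 and 2454 in control libraries 1 to 3. DUSP5, a nuclear phosphatase gene that inactivates ERK, was at 541, 833 and 836 against 2962, 2936 and 3132, a log2 fold change of -2.06 ± 0.18 (SE), with resistant 1 the lowest. SH3PXD2A, an invadopodium scaffold gene, was at 977, 538 and 601 against 176, 167 and 179, with resistant 1 the highest. WNT8B, a Wnt ligand gene named after its value was seen, was the other higher member and had few reads. It was at 8.16, 6.46 and 8.88 against 2.05, 5.20 and 0, a log2 fold change of 1.72 ± 0.62 (SE).

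In the apoptosis and survival list, 6 of 10 were called lower and 1 higher, with a median of -0.45. PDCD11, which despite its name acts in ribosomal RNA processing, was at 992, 1154 and 1101 in resistant libraries 1 to 3 and at 2311, 2393 and 2087 in control libraries 1 to 3. BAG3, a co-chaperone gene, was at 1159, 993 and 1011 against 1910, 1864 and 1805. Both had groups far apart, with log2 fold changes of -1.06 and -0.82. FAS, the death receptor gene, which overlaps ACTA2, was at 446, 347 and 307 against 321, 291 and 300 and did not pass; it was chosen after its values were seen, as was FAM53B, the 1 higher member, with a log2 fold change of 0.25.

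The interferon-induced IFIT genes lie in a tandem cluster and were all called lower, 4 of 4 tested, with a median of -0.88. Their products bind viral RNA or the translation machinery. IFIT3 was at 1366, 1563 and 1496 in resistant libraries 1 to 3 and at 2314, 2414 and 2457 in control libraries 1 to 3. IFIT1 was at 720, 807 and 956 against 2030, 2118 and 2326, a log2 fold change of -1.39 ± 0.087 (SE). Both lie within the bounds of LIPA on the opposite strand, and how strand was counted was not given in the sources used here. IFIT2 and IFIT5, the other tested members, had log2 fold changes of -0.31 and -1.05.

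The adhesion, matrix and cytoskeleton genes were mixed, with 10 of 27 called lower, 7 higher and a median of -0.22. COL17A1, a hemidesmosomal collagen gene, had the largest fall, from 341, 371 and 319 in control libraries 1 to 3 to 11.2, 16.6 and 16.8 in resistant libraries 1 to 3, a log2 fold change of -4.46 ± 0.19 (SE). LOXL4, a lysyl oxidase-like gene, was at 458, 473 and 485 in control and 62.2, 37.8 and 43.4 in resistant libraries. MYOF, a membrane repair protein gene, was at 8655, 8426 and 7928 in control and 5587, 4748 and 5053 in resistant libraries. PDLIM1, an actin-associated LIM protein gene, was higher, at 5127, 4684 and 4451 against control values of 3295, 3283 and 3264.

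ANKRD1 and ACTA2 had the largest rises among genes eligible under the naming rule. ANKRD1, a transcriptional cofactor gene and a known target of YAP, was at 2766, 1860 and 1883 in resistant libraries 1 to 3 and at 274, 225 and 231 in control libraries 1 to 3, a log2 fold change of 3.13 ± 0.15 (SE), with resistant 1 the highest. ACTA2, the smooth muscle actin gene, which overlaps STAMBPL1, ACTA2-AS1 and FAS, was at 406, 352 and 360 against 53.4, 48.8 and 41.4, a log2 fold change of 2.94 ± 0.14 (SE). ADAM8, a metalloprotease gene chosen after its values were seen, was at 887, 422 and 403 against 1119, 1111 and 1096. The groups did not overlap, but it did not pass the test, and resistant 1 lay far from the other resistant libraries.

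The list of transcription factor and chromatin genes included no higher member, with 14 of 23 called lower and a median of -0.35. By the transcription factor families given in the deposited annotation, 11 members were tested. Of these, 3 were called lower and 1 higher, with a median of -0.12. Over all 1243 tested genes with such a family, 17.7% were called lower and 31.4% higher. NOLC1, a nucleolar phosphoprotein gene placed on this list for its role with RNA polymerase I, was at 1782, 1981 and 2103 in resistant libraries 1 to 3 and at 5221, 5055 and 4912 in control libraries 1 to 3. TRIM8, a ubiquitin ligase gene, was at 2688, 2491 and 2351 against 3965, 4065 and 3801. In RNA processing and translation, 11 of 14 were called lower and 0 higher, with a median of -0.66. EIF3A, the largest subunit gene of translation initiation factor eIF3, was at 2506, 3148 and 3329 against 6672, 6638 and 6381, and RRP12, a ribosome export factor gene, at 306, 425 and 421 against 1346, 1425 and 1300. TIAL1, an RNA-binding protein gene, was at 1785, 1524 and 1703 against 1749, 1790 and 1816, with overlapping groups, and did not pass.

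**Figure D4:**
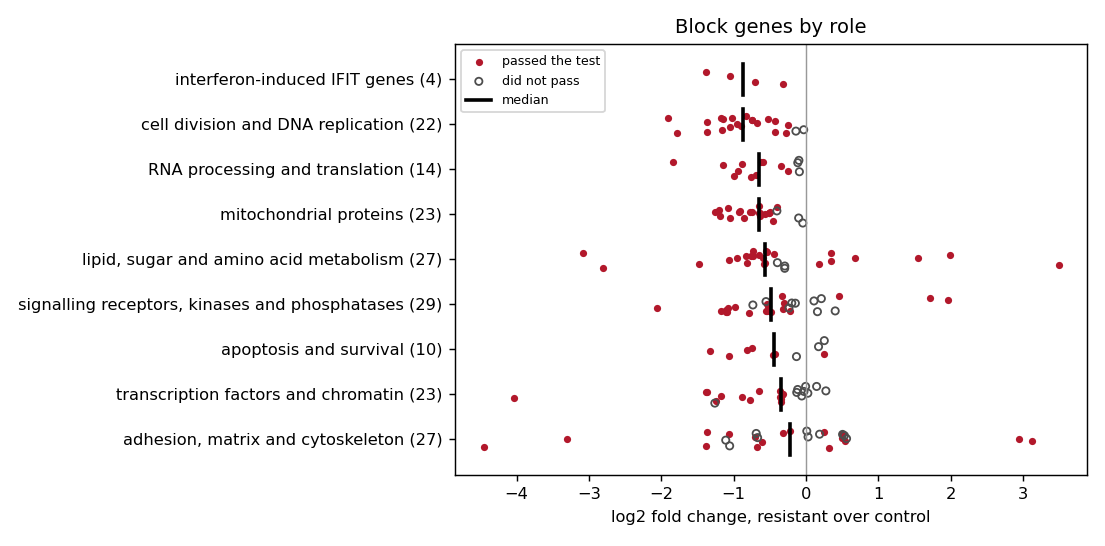
Log2 fold change, resistant over control (horizontal axis), of each tested block gene on the 9 role lists (rows; number tested in parentheses). Filled points passed the limma test, open points did not, and the black bar is the list median, which runs from -0.88 for the IFIT genes to -0.22 for adhesion, matrix and cytoskeleton.

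INA, SFR1 and PLEKHS1 were named for the size of their difference. INA, a neuronal intermediate filament gene, was at 17.3, 11.1 and 5.92 in resistant libraries 1 to 3 and at 110, 117 and 136 in control libraries 1 to 3, a log2 fold change of -3.40 ± 0.29 (SE). SFR1, a gene of homologous recombination repair, was at 92.8, 58.1 and 84.8 against 275, 317 and 287. PLEKHS1, a gene for a pleckstrin homology domain protein, was at 170, 238 and 221 against 30.8, 33.3 and 47.2, a log2 fold change of 2.48 ± 0.19 (SE). The 6 largest falls (COL17A1, INA, LOXL4, DUSP5, SFR1 and RRP12) lay between 97356358 and 110511544. The 6 largest rises (ANKRD1, ACTA2, PLEKHS1, PPP1R3C, SH3PXD2A and PLCE1) lay between 88935074 and 113783429. STAMBPL1, which overlaps ACTA2 and was chosen after its value was seen, fell by 1.33 on the log2 scale.

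**Figure D5:**
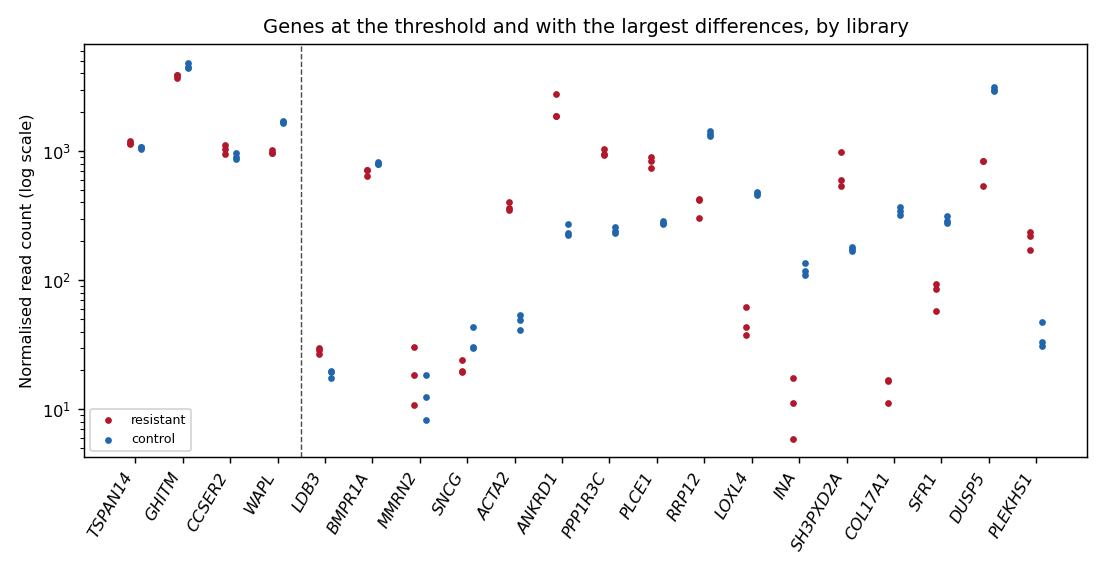
Normalised read count in each library (points, log scale; red resistant, blue control) of the 8 protein-coding genes around the block threshold and the 12 members with the largest falls and rises, in order of position. The dashed line is the threshold. WAPL, left of the line, shows separated groups, as do the 12 members with the largest differences.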

How the data were processed

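RNA-seq of 3 resistant and 3 control libraries was analysed, grouped by sample title. The authors deposited a signal value for each of 30330 Ensembl genes per library, with gene coordinates. Coordinates are on GRCh38 according to the notes on processing that the submitters gave, per the labels. Which aligner, counter and normalization made the values is not given in the sources used here. In every library, 100% of deposited signal values were whole multiples of 1 step within 0.001 reads, so they are read counts divided by a size factor, and whole reads were recovered from them.

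The test used log2(value + 1) for genes that reached 1 in 3 or more libraries, with limma-trend (limma 3.58.1, R 4.3.3, robust, two-sided, group as the sole term), with Benjamini-Hochberg adjustment over all tested genes and a threshold of 0.05. Fold changes on this scale understate the change of genes with few reads. With 3 libraries against 3, an exact permutation test cannot go below 0.1, and none was used. edgeR 4.0.16 (quasi-likelihood) on the recovered reads called 10159 genes and DESeq2 1.42.0 called 8826, where limma called 10204. The members, lists and tests were chosen with earlier results of these data known. The fit and the step search were also run on simulated data in which every block gene had the same added shift, beginning at the threshold. The real members differed widely among themselves, so that run does not show how well the edge was placed here.

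The naming rule took the last 4 and first 4 protein-coding genes around the threshold with a mean of at least 10. It added the 6 largest falls and rises among protein-coding members with non-overlapping groups and a mean of 50 or more in the higher group. The 2 members of each role list with the highest mean were included. This gave 38 genes, of which 1 is not reported here, as is 1 leukocyte marker. Gene symbols were looked up by Ensembl identifier and found for 495 of the 499 members. Alternatives were quantile normalization, median centring, other filters and pseudocounts, limma without trend, the count tests, a block for the replicate number, leaving out single libraries, protein-coding genes only and other step fits. Protein-coding genes with a mean of at least 50 and the block without the cell division list were added after the data had been seen.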

Additional observations from a re-analysis of the deposited data

How the results depend on the processing

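The block median log2 fold change stayed below 0 in all 19 alternatives, between -0.63 and -0.38. It was -0.63 with median centring, -0.54 with a minimum of 10, -0.44 with no filter, -0.53 and -0.38 with pseudocounts of 0.1 and 5, -0.55 with protein-coding genes only, -0.58 with well-measured protein-coding genes and -0.46 without the cell division list. Median centring moved the median of all tested genes from 0.013 to -0.12.

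The difference between block and rest of chromosome 10 was -0.68 with DESeq2, -0.67 with edgeR, -0.58 with no filter, -0.67 and -0.49 with pseudocounts of 0.1 and 5 and -0.59 without the cell division list, against -0.63 as reported from the group fit. Leaving out single libraries gave -0.64 to -0.60 for this difference and -0.50 to -0.49 for the block median. Members called lower ranged from 172 to 215, and none of the 194 changed sign in any refitted model. Members called higher were 19 with limma without trend and 24 to 30 with a library left out. The ratio of block shares of reads was 0.713 without mitochondrial reads and 0.754 without the 5 highest members, and 0.720 to 0.728 with a library left out.

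The fitted edge lay at 84.138 Mb with no filter, with a pseudocount of 5 and by least absolute deviation, at 86.959 Mb with protein-coding genes only and at 86.435 Mb with well-measured genes, against 80.247 Mb. With a library left out it ranged from 80.151 to 86.522 Mb, and the cause was not tested. Only 9 tested genes start between 81.6 and 86.6 Mb.

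With the replicate number as a block (replicate block), 192 of the 194 lower calls were kept, 193 members were called lower and 31 higher, and the block median was -0.50. The labels tie no number to a batch, and deviations of same-numbered libraries correlated at -0.0015, 0.00012 and 0.0067. By limma without trend, BNIP3, GHITM and BMPR1A no longer passed (adjusted p = 0.058, 0.074 and 0.11). BMPR1A also missed the threshold with quantile normalization and without control replicate 2 (limma adjusted p = 0.097 and 0.083), and SNCG passed as lower in 6 alternatives. Other genes that passed only in an alternative were CCSER2 as higher with quantile normalization and without resistant replicate 1 (limma adjusted p = 0.013 and 0.0049), TSPAN14 as higher with quantile normalization (0.028), LDB3 as higher by limma without trend (0.012) and TIAL1 as lower with median centring and without resistant replicate 1 (0.0093 and 0.046). Among the named genes, the 1 change of sign was TSPAN14 with median centring (-0.013).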
